A study of Mus musculus with 20 samples.

Results

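Voltage-gated sodium channels of the heart were followed through 7 genes that encode channel proteins or proteins bound to them: the alpha subunit genes Scn4a and Scn7a, the beta subunit genes Scn2b, Scn3b and Scn4b, and the regulator genes Fgf13 and Gpd1l. They were taken by symbol, matched to the Ensembl identifiers of the gene table, from 63318 genes in all. Mouse heart tissue was compared after myocardial infarction (MI), after its sham operation (MISham), after ischemia-reperfusion (IR) and after its sham operation (IRSham), with 4 short-read poly(A) RNA libraries in each group. MI tissue was taken 72 h after surgery, and IR tissue after 40 min of a procedure labelled LCA followed by 72 h of reperfusion; the labels give no sham times, and no strain, age or sex. MI and MISham tissue came from the infarct core and its periphery and IR and IRSham tissue from the core, so the region sampled and the kind of injury cannot be told apart. Nothing in the labels ties a library to its own animal; the p-values here weigh differences against the scatter of libraries, which may be technical.

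A sodium channel alpha subunit forms the pore that opens on depolarisation and carries the upstroke of the cardiac action potential. Beta subunits are small membrane proteins that attach to the alpha subunit and alter its gating and its place in the membrane. Fibroblast growth factor homologous factors, of which Fgf13 is the main one in mouse ventricle, stay inside the cell, bind the tail of the alpha subunit and shift its inactivation. Gpd1l encodes a relative of glycerol-3-phosphate dehydrogenase that influences how much channel reaches the cell surface, and in humans it is linked to Brugada syndrome. Of the members, Scn4a encodes the main channel of skeletal muscle, and Scn7a an atypical channel known from glia and other non-excitable cells that responds to extracellular sodium.

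The members lie on 4 chromosomes in GENCODE M21: Scn7a (ENSMUSG00000034810.8) on chromosome 2, Scn2b (ENSMUSG00000070304.13), Scn3b (ENSMUSG00000049281.17), Scn4b (ENSMUSG00000046480.7) and Gpd1l (ENSMUSG00000050627.14) on chromosome 9, Scn4a (ENSMUSG00000001027.8) on chromosome 11 and Fgf13 (ENSMUSG00000031137.18) on chromosome X. The 250 bases before the annotated start are shown for 3 genes that fell after both injuries, Scn4a, Fgf13 and Gpd1l, and for Scn7a, which passed the test after MI and not after IR. They are RefSeq sequence of mouse build GRCm38.p6, 5′ to 3′ on the gene's strand, which is the minus strand for all 4 genes. The windows lie at chr11:106349391-106349640 for Scn4a, chrX:59567349-59567598 for Fgf13 (the RefSeq start nearest to transcript Fgf13-205), chr9:114933988-114934237 for Gpd1l and chr2:66784911-66785160 for Scn7a. Capitals mark a match, on either strand, to 1 of 5 motifs.
Scn4a: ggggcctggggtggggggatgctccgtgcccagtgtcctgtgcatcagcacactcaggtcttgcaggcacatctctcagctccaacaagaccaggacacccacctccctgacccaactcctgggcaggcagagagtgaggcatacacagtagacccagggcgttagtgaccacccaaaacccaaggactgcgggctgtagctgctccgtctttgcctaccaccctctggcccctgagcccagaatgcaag
Fgf13: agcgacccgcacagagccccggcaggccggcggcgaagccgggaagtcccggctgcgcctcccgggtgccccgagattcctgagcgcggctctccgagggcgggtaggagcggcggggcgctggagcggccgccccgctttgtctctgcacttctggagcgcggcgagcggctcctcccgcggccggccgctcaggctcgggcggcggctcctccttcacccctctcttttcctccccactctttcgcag
Gpd1l: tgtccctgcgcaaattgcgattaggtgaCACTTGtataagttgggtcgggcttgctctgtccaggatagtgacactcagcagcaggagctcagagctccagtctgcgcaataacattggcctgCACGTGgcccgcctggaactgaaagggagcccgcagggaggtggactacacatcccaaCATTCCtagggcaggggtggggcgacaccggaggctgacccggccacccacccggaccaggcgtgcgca
Scn7a: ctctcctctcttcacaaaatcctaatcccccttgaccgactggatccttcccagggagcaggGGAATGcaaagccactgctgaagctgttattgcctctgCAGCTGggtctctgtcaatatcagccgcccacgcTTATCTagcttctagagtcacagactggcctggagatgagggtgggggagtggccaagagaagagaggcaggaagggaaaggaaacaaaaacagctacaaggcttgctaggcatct
The E-box searched was CANNTG, the GATA motif AGATAA, the T-box motif AGGTGT and the TEAD motif GGAATG. The MEF2 motif was CTA and TAG with any 4 bases between. Both strands were searched, and none of the marked matches overlap. Scn7a had 1 E-box, 1 GATA and 1 TEAD match, and Gpd1l had 2 E-boxes and 1 TEAD match. The Scn4a window and the Fgf13 window shown held none of the 5. RefSeq gives Fgf13 other starts too: the windows nearest to Fgf13-202 and Fgf13-201 also held none, while the one at chrX:59585573-59585822, whose nearest annotated transcript, Fgf13-203, starts 17501 bases away, held 2 E-boxes and 2 MEF2 matches. Over 32851 windows of the same length, 66.2% held an E-box, 9.99% a GATA, 3.2% a MEF2, 11.8% a T-box and 12.6% a TEAD match.

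Library totals were 57.2 to 63.1 M counts per MI library, against 24.3 to 27.6 M in MISham, and 26.2 to 31.8 M in IR against 25.5 to 29.8 M in IRSham. CPM, a gene's counts over the library total, was scaled by the trimmed mean of M values (TMM). A set of 20 sarcomere genes, which mark cardiomyocytes, summed to 19941 to 35953 CPM in MI against 90248 to 108312 CPM in MISham, and to 23327 to 40713 CPM in IR against 96610 to 104070 CPM in IRSham. All 20 were lower after each injury, and 10 of 10 monocyte and macrophage markers were higher. IR libraries 1 and 3 had the most sarcomere counts of their group (40713 and 36250 CPM, against 23327 and 24645 CPM in libraries 2 and 4), and MISham libraries 1 and 3 had more summed macrophage marker counts (863 and 627 CPM) than MISham 2 and 4 (400 and 427 CPM). In bulk tissue, fewer cells of a type and less RNA per cell cannot be told apart. Members are therefore also given per sarcomere transcript, that is, with library sizes set from the geometric mean of the 20 sarcomere genes.

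Of the 7 members, 5 fell per library after MI: Scn4b, Scn4a, Fgf13, Gpd1l and Scn7a. Per sarcomere transcript Gpd1l and Scn7a were higher after MI, but by less than the all-gene median of 1.84 on that scale. The first 4 of the 5 also fell per library after IR, in the same order of size. None rose per library, and Scn2b and Scn3b, both near 1 CPM, passed the test in neither comparison. The 5 of 7 lower after MI stand beside 30.2% of all 19741 tested genes that were lower and 34.8% that were higher, and the 4 of 7 lower after IR beside 28.2% lower and 29.5% higher (edgeR quasi-likelihood test, adjusted p under 0.05). The members' median log2 fold change was -1.20 after MI and -1.04 after IR, where all tested genes had medians of 0.08 and 0.03. All 7 members passed the filter on low counts. They were chosen with earlier results of these data known, so these counts and medians describe them and are no test of the set.

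**Figure D1:**
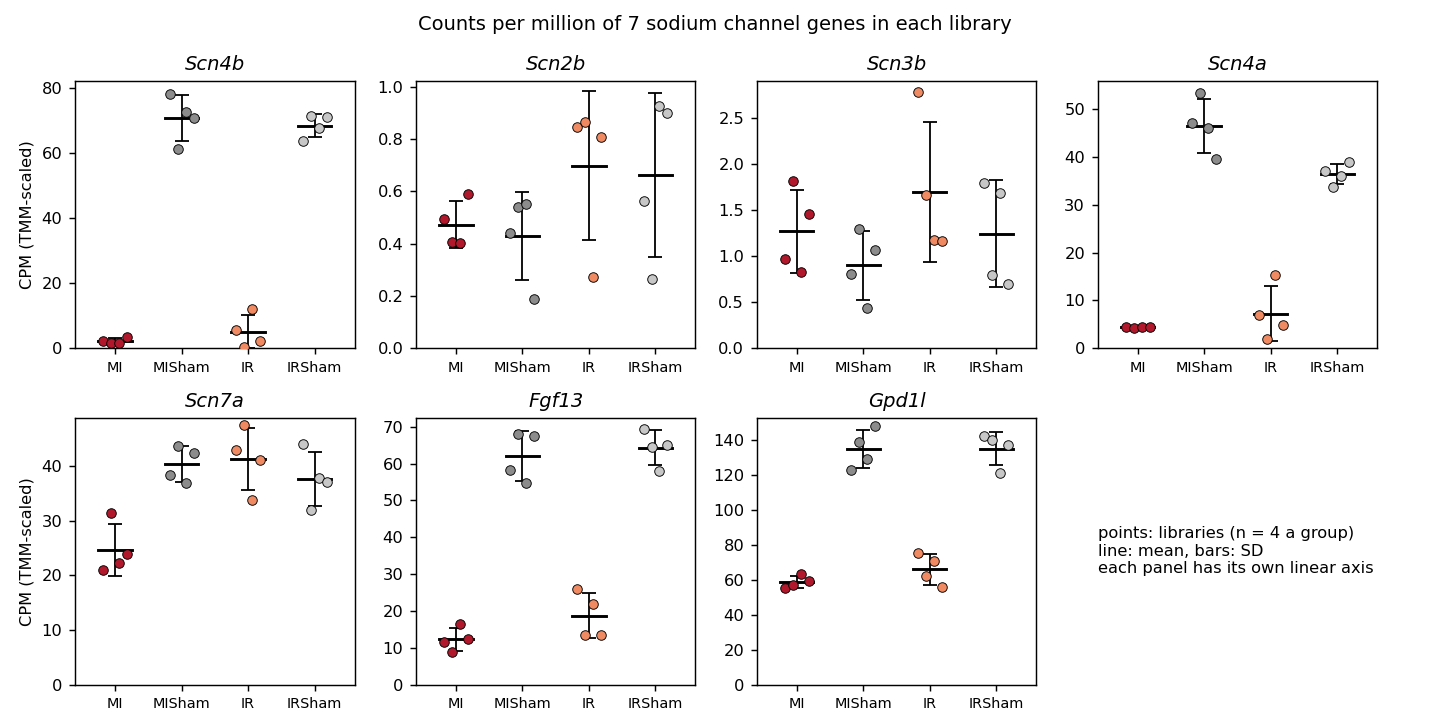
CPM of each member in every library (points), with the group mean (line) and SD (bars), n = 4 libraries a group; each panel has its own linear axis from 0. Scn4b, Scn4a, Fgf13 and Gpd1l sit lower in MI and IR than in either sham with no overlap. Per sarcomere transcript Gpd1l is higher, but below the all-gene medians of 1.84 after MI and 1.57 after IR. Scn7a is lower in MI than in MISham on the CPM scale shown, and Scn2b and Scn3b overlap throughout.

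Among beta subunits, Scn4b, whose cytoplasmic tail can block the open channel, had the largest change of the 7 members. It had 2.1, 1.67, 1.6 and 3.38 CPM in MI libraries 1 to 4, against 78.2, 61.1, 72.5 and 70.8 CPM in MISham. In IR libraries 1 to 4 it had 5.71, 0.474, 11.9 and 2.06 CPM, against 63.6, 71.3, 67.6 and 71 CPM in IRSham. No injured library came near a sham library, and the IR libraries spread widely, with libraries 1 and 3 high and library 2 lowest at 17 counts. Scn4b averaged 2.19 ± 0.823 CPM in MI and 70.6 ± 7.1 CPM in MISham (SD, n = 4 each), a mean 32.3-fold lower, with a fitted log2 fold change of -5.01 ± 0.61 (SE, edgeR adjusted p = 5.95e-06). It averaged 5.03 ± 5.05 CPM in IR and 68.4 ± 3.59 CPM in IRSham (SD, n = 4 each), 13.6-fold lower, with a log2 fold change of -3.77 ± 0.58 (SE, edgeR adjusted p = 7.37e-05). By size of the fall it ranked 8 of 19741 genes after MI and 28 of 19741 after IR. The IR value depends on which libraries enter: the log2 fold change was -4.68 without IR library 3 and -5.77 without libraries 1 and 3.

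Scn2b, a beta subunit that is bound to the alpha subunit by a disulphide bond, was close to the limit of counting, with 4 to 40 counts per library. It had 0.401 to 0.59 CPM in MI against 0.187 to 0.551 CPM in MISham, and 0.272 to 0.864 CPM in IR against 0.264 to 0.927 CPM in IRSham. The groups overlapped, and the log2 fold changes were 0.13 ± 0.46 after MI (SE, edgeR adjusted p = 0.821, 95% interval -0.77 to 1.02) and 0.07 ± 0.45 after IR (adjusted p = 0.911, interval -0.81 to 0.94). Scn3b, a beta subunit held without a covalent bond, had 0.834 to 1.82 CPM in MI against 0.433 to 1.3 CPM in MISham, and 1.17 to 2.79 CPM in IR against 0.695 to 1.8 CPM in IRSham. Its groups overlapped too, with log2 fold changes of 0.50 ± 0.42 after MI (SE, edgeR adjusted p = 0.303, interval -0.31 to 1.32) and 0.44 ± 0.41 after IR (adjusted p = 0.381, interval -0.37 to 1.24). These intervals leave room for a change of about 1 log2 unit upwards in either gene, so a lack of change was not shown at this depth. Markers of neurons, which express both genes, summed to 51.9 to 61.6 CPM in MI against 13.9 to 16.8 CPM in MISham, and to 40 to 52.5 CPM in IR against 15.4 to 21.5 CPM in IRSham. Of 4 tested, 2 were higher and 1 lower after MI, and 1 was higher and 1 lower after IR; Snap25 was at 0 in MI, MISham and IR, and Th in MISham, IR and IRSham. Their part in the Scn2b and Scn3b values was not tested.

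Of the alpha subunit genes, Scn4a had 4.52, 4.25, 4.36 and 4.39 CPM in MI libraries 1 to 4, against 47.2, 53.3, 46.1 and 39.5 CPM in MISham. In IR it had 6.84, 1.84, 15.4 and 4.87 CPM, against 37, 33.8, 36 and 38.9 CPM in IRSham. The MI libraries were nearly equal, and the IR libraries had the same order as for Scn4b at the ends, with library 3 highest and library 2 lowest. Scn4a fell 10.6-fold after MI (log2 fold change -3.41 ± 0.42, SE, edgeR adjusted p = 5.93e-06) and 5.02-fold after IR (-2.33 ± 0.41, adjusted p = 0.00021). Without IR library 3 the IR value was -3.03, and without IR libraries 1 and 3 it was -3.45. Of 6 tested skeletal muscle markers, 3 were higher and 1 lower after MI, and 2 were higher and 1 lower after IR. The median log2 fold change of the 6 was 0.80 after MI and 0.26 after IR. The summed level of the 12 markers listed was lower, at 702 to 1132 CPM in MI against 1562 to 1764 CPM in MISham. It was 660 to 977 CPM in IR against 1573 to 2186 CPM in IRSham. The sum thus went the opposite way from the median tested marker. Of the 12, Myh4 was at 0 in MI, MISham and IRSham, Tnnc2 in MISham, IR and IRSham, Myh2 in MI and Myh8 in MISham. Their part in the Scn4a result was not tested.

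Scn7a, alone of the members that fell after MI, did not pass after IR. It had 20.9, 31.4, 22.3 and 23.9 CPM in MI against 38.4, 43.6, 36.8 and 42.4 CPM in MISham, with no overlap. In IR it had 42.9, 47.4, 33.8 and 41 CPM against 43.9, 31.9, 37.8 and 37 CPM in IRSham, with the ranges overlapping. The log2 fold change was -0.71 ± 0.13 after MI (SE, edgeR adjusted p = 0.000106) and 0.13 ± 0.13 after IR (adjusted p = 0.399, 95% interval -0.12 to 0.38). The difference of the MI and IR responses was -0.84 ± 0.18 (SE, edgeR adjusted p = 0.0678 over all genes, with 0.192% of genes called), which misses the threshold. It passed under DESeq2 (-0.90, adjusted p = 0.00221), and in edgeR without the low-count filter (adjusted p = 0.0385). With edgeR it also passed without MI library 2 (adjusted p = 0.0403) or IR library 3 (adjusted p = 0.0149). The same held without IR libraries 1 and 3 (adjusted p = 0.0243) and without MISham libraries 1 and 3 (adjusted p = 0.0188). It stayed uncalled in 14 of 16 fits that left out 1 library. Per sarcomere transcript the difference was -0.60 ± 0.34 (SE, edgeR adjusted p = 0.729) and did not pass. In the deposited transcript abundances it was -0.67 ± 0.21 (SE, limma adjusted p = 0.258) and did not pass either.

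The direction of Scn7a after MI depends on the scale: it was lower per library, at 0.00 in TPM, the deposited transcript abundance, which corrects for length, and higher by 1.09 on the log2 scale per sarcomere transcript. In summed TPM it had 3.71 ± 0.828 in MI and 3.65 ± 0.123 in MISham, and 6.18 ± 1.15 in IR and 3.5 ± 0.644 in IRSham (SD, n = 4 each). The median log2 fold change of all tested transcripts in TPM was 0.6 after MI and 0.48 after IR, so a TPM value of 0.00 lies below that median. Per sarcomere transcript the all-gene median after MI was 1.84, above the 1.09 of Scn7a. Cell types known to express Scn7a were read from fixed marker lists. Of 12 resident fibroblast markers, 5 were higher and 6 lower after MI, with summed levels of 1742 to 2062 CPM in MI against 2372 to 2862 CPM in MISham; after IR 6 were higher and 4 lower, with 2100 to 2641 CPM in IR against 2388 to 2763 CPM in IRSham. Of 10 tested Schwann cell markers, 2 were higher and 6 lower after MI and 2 higher and 5 lower after IR. Their summed levels overlapped, at 31.3 to 37.5 CPM in MI and 28.9 to 42.8 CPM in MISham, and at 31.3 to 36.6 CPM in IR and 31.6 to 42.7 CPM in IRSham. Their part in the Scn7a result was not tested.

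Both regulator genes fell per library after each injury. Per sarcomere transcript Gpd1l was higher (0.56 after MI and 0.47 after IR), but below the all-gene medians of 1.84 and 1.57 on that scale. Fgf13 had 11.6, 8.98, 16.5 and 12.3 CPM in MI libraries 1 to 4, against 58.2, 68, 54.6 and 67.4 CPM in MISham, and 25.9, 13.6, 21.8 and 13.6 CPM in IR against 69.4, 64.6, 58 and 65.1 CPM in IRSham. No injured library reached a sham library, and IR libraries 1 and 3, with the most sarcomere counts, were the highest of their group. Fgf13 fell 5.03-fold after MI (log2 fold change -2.33 ± 0.21, SE, edgeR adjusted p = 1.3e-07) and 3.43-fold after IR (-1.78 ± 0.21, adjusted p = 2.96e-06). Gpd1l, the most abundant member in CPM per kilobase though not in summed TPM, had 55.6, 56.9, 63.3 and 59.6 CPM in MI against 123, 139, 129 and 148 CPM in MISham, and 75.1, 61.9, 70.9 and 55.7 CPM in IR against 142, 140, 121 and 137 CPM in IRSham. Per library its falls had the smallest SE of the members, 2.29-fold after MI (-1.20 ± 0.09, SE, edgeR adjusted p = 8.4e-09) and 2.05-fold after IR (-1.04 ± 0.09, adjusted p = 8.65e-08).

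Levels were ordered per length on both available scales, CPM per kilobase of gene length and summed TPM, which gave different orders. In CPM per kilobase the order in both shams was Gpd1l (26.6 in MISham and 26.6 in IRSham), Fgf13 (15.4 and 16), Scn4b (14.2 and 13.7), Scn4a (6.61 and 5.17), Scn7a (5.48 and 5.13), Scn3b (0.165 and 0.228) and Scn2b (0.0923 and 0.142). Scn4a and Scn7a, and Scn3b and Scn2b, were not separated by their ranges, and Fgf13 and Scn4b were separated in IRSham but not in MISham. In CPM per kilobase Scn7a was the second in injured tissue, against the fifth in the shams: the injured order was Gpd1l (11.6 in MI and 13 in IR), Scn7a (3.35 and 5.62), Fgf13 (3.07 and 4.66), Scn4a (0.622 and 1.03), Scn4b (0.439 and 1.01), Scn3b (0.233 and 0.311) and Scn2b (0.101 and 0.15). Here the ranges of Scn7a and Fgf13 overlapped, as did those of Scn4a and Scn4b and those of Scn4b and Scn3b. In summed TPM Fgf13 came before Gpd1l in every group, at 17 against 16.4 TPM in MI and 23.8 against 18 TPM in IR, where their ranges overlapped, and at 50.6 against 22.9 TPM in MISham and 59.9 against 24.6 TPM in IRSham, where they did not. On that scale Scn7a was the third in injured tissue (3.71 TPM in MI and 6.18 in IR), below Fgf13 and Gpd1l without overlap, and the fifth in both shams. Scn4a (10.4 TPM) and Scn4b (9.95 TPM) overlapped in MISham on that scale, while in IRSham Scn4b (10 TPM) lay above Scn4a (6.41 TPM). The summed TPM of Fgf13 and Scn4a rests largely on short transcripts. In MISham Fgf13-206 (456 bases) had 20.6 TPM and Fgf13-205 (575 bases) 13.1 TPM, and in MI they had 8.22 and 3.36 TPM. The noncoding Scn4a-202 (443 bases) had 5.73 TPM in MISham, against 4.64 TPM for the coding Scn4a-201.

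Per sarcomere transcript the members parted in direction. On that scale Scn4b, Scn4a and Fgf13 were lower after MI by log2 fold changes of -3.27 ± 0.54, -1.64 ± 0.32 and -0.62 ± 0.16 (SE, edgeR adjusted p = 3.34e-05 for Scn4b, 6.91e-05 for Scn4a and 0.00104 for Fgf13). With adjusted p under 0.05, 4 members were higher after MI, Gpd1l by 0.56 ± 0.17, Scn7a by 1.09 ± 0.25, Scn2b by 1.87 ± 0.54 and Scn3b by 2.34 ± 0.44. Only 3.39% of all genes were lower and 82.7% higher on this scale, whose median log2 fold change over all genes was 1.84 after MI and 1.57 after IR. After IR, Scn4b (-2.45 ± 0.52, edgeR adjusted p = 0.00045) and Scn4a (-0.95 ± 0.32, adjusted p = 0.00945) were lower, where 2.42% of genes were lower and 79.6% higher. Fgf13 after IR had -0.32 ± 0.16 (edgeR adjusted p = 0.0668) and did not pass, although it passed without IR library 1 (-0.39, adjusted p = 0.04) or without MI library 3 (adjusted p = 0.0418), and when the scale was set from the median log ratio of the sarcomere genes (-0.43, adjusted p = 0.00946). Gpd1l (0.47 ± 0.17), Scn2b (1.62 ± 0.53), Scn7a (1.69 ± 0.25) and Scn3b (1.93 ± 0.43) were higher after IR. No member was called on this scale for the difference of responses, where 0.00507% of genes were, or between the shams, where 2.4% were. Gpd1l after IR did not pass without IR library 2 (0.38, edgeR adjusted p = 0.0552), and the Scn4b value was -3.23 without IR library 3.

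**Figure D2:**
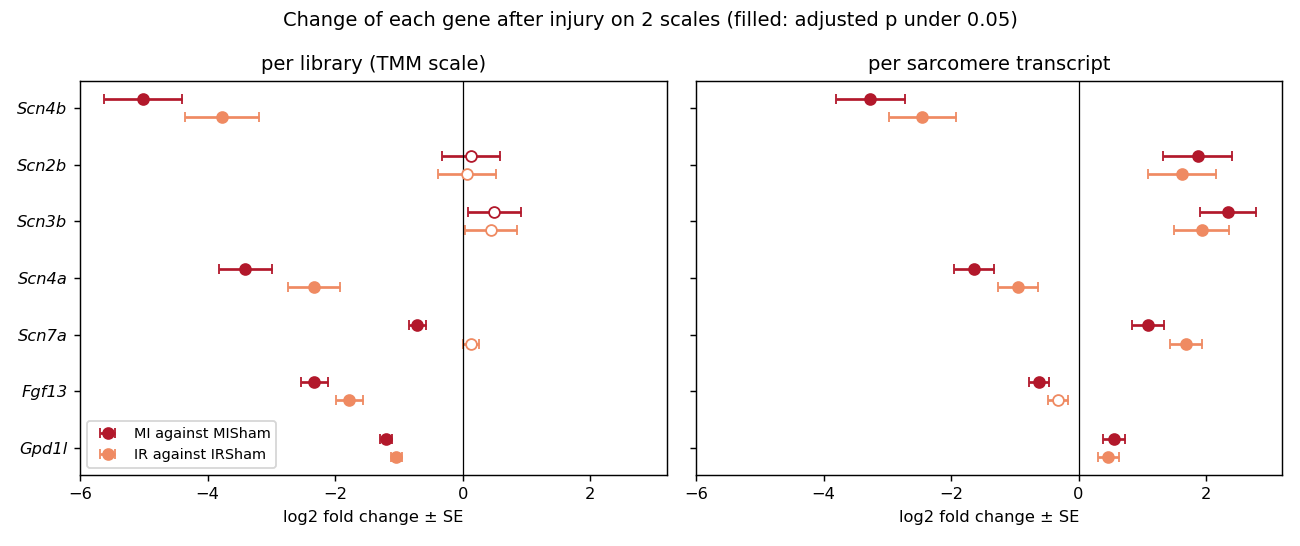
Log2 fold change ± SE of each member for MI against MISham and IR against IRSham, per library (left) and per sarcomere transcript (right); filled points have an adjusted p under 0.05. Scn4b and Scn4a lie below 0 on both scales in both injuries. Gpd1l and, after MI, Scn7a lie on opposite sides of 0 on the 2 scales, and Scn2b and Scn3b pass only per sarcomere transcript. All genes have medians of 1.84 after MI and 1.57 after IR per sarcomere transcript.

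Library by library, Scn4b per sarcomere transcript had 4.72, 4.03, 2.17 and 5.89 scaled CPM in MI, against 47.2, 31.6, 44.7 and 38.6 scaled CPM in MISham. It had 7.3, 0.969, 16 and 4.08 scaled CPM in IR, against 34.4, 39.7, 40.2 and 42.3 scaled CPM in IRSham. Even the highest injured library, IR 3, stayed below every sham library. For Scn4a, IR 3 (20.8 scaled CPM) lay within the IRSham range of 18.8 to 23.2 scaled CPM, while the other IR libraries had 3.76 to 9.63 and the MI libraries 5.9 to 10.3, against 21.6 to 28.5 in MISham. Fgf13 differed less from its shams on this scale than per library but without overlap. It had 21.4 to 26 scaled CPM in MI against 33.6 to 36.8 in MISham, and 26.9 to 33.1 in IR against 34.5 to 38.8 in IRSham. The separation after IR depends on how the scale is built. With CPM divided by the summed sarcomere CPM instead, Fgf13 in IR overlapped IRSham, and Scn4a in IR 3 lay above every IRSham library.

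**Figure D3:**
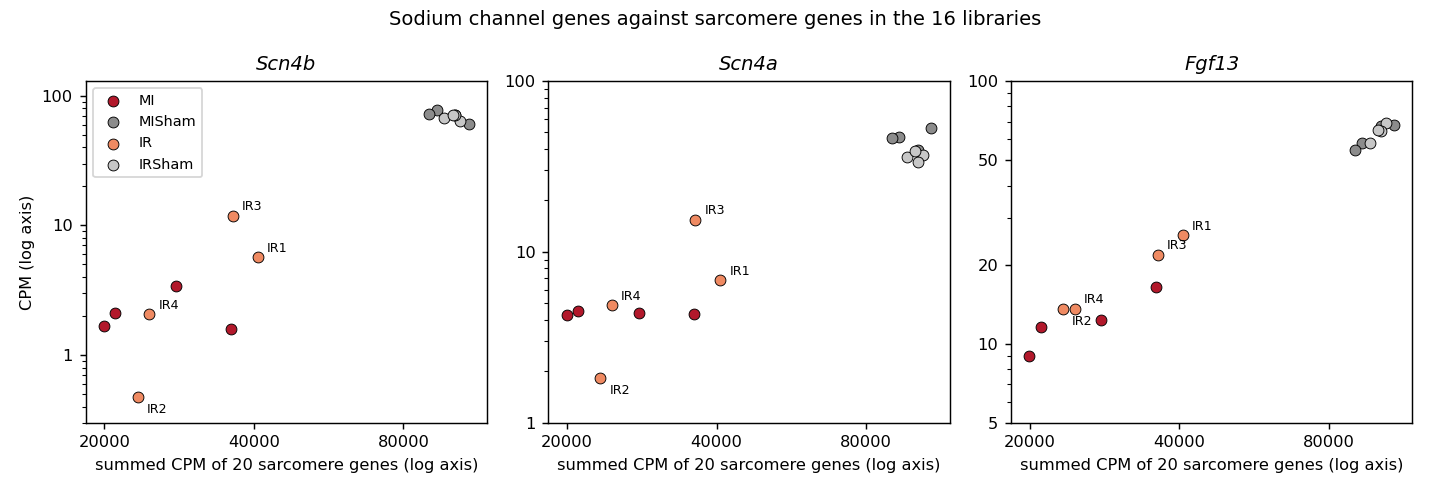
CPM of Scn4b, Scn4a and Fgf13 against the summed CPM of 20 sarcomere genes in the 16 libraries, both axes logarithmic; IR libraries are numbered. Sham libraries cluster at the upper right. At 23327 summed CPM the IR 2 library has 0.474 CPM of Scn4b while IR 3, at 36250, has 11.9 CPM. Other injured libraries do not follow that order: IR 1, at 40713, has 5.71 CPM and MI 3, at 35953, has 1.6 CPM.

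The MI and IR responses of the members were not shown to differ: the test of the difference called 0 of 7, against 38 of all genes, and DESeq2 called 1, Scn7a. Scn4b had a difference of -1.24 ± 0.77 (SE, edgeR adjusted p = 0.474) and Scn4a of -1.08 ± 0.55 (adjusted p = 0.383), and without IR libraries 1 and 3 these were 0.72 and 0.00. Fgf13 had -0.55 ± 0.28 (edgeR unadjusted p = 0.0721, adjusted p = 0.381, approximate 95% interval -1.11 to 0.01). Gpd1l had -0.16 ± 0.13 (edgeR adjusted p = 0.583, interval -0.41 to 0.09). At an unadjusted p under 0.05, 2905 genes differed between the responses. Between the shams, 0 of 7 members were called, where 3.2% of all genes were. Scn4a had 39.5 to 53.3 CPM in MISham against 33.8 to 38.9 CPM in IRSham without overlap, with a log2 fold change of 0.35 ± 0.38 (SE, edgeR adjusted p = 0.745), and it passed when the shams alone were fitted (0.38, adjusted p = 0.0349).

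Among alpha subunit genes that are no members and with TMM scaling, Scn3a, a channel known from developing neurons, was lower after MI (log2 fold change -1.43 ± 0.24, SE) and IR (-0.97 ± 0.24), as was Scn10a, a channel known from sensory neurons (-1.01 ± 0.29 and -0.83 ± 0.31), both under 5 CPM in every group mean; per sarcomere transcript Scn3a (0.28 and 0.50) was not called and Scn10a was 0.75 after MI, called, and 0.64 after IR, not called. Scn2a was not called with TMM (0.66 ± 0.40 and 0.50 ± 0.38) and was higher per sarcomere transcript (2.45 and 2.06). All genes had medians of 1.84 and 1.57 on that scale. Scn1a, Scn8a, Scn9a and Scn11a were too low to test.

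Fgf13 held 57.9% ± 8.49 of the FGF homologous factor level per kilobase in MI and 85.4% ± 1.73 in MISham, and 61.1% ± 9.35 in IR and 86.6% ± 0.865 in IRSham. Fgf11 made up most of the rest, with 38.9% ± 8.2 in MI and 12.7% ± 2.12 in MISham, and 34.4% ± 8.07 in IR and 11.6% ± 1.06 in IRSham. Fgf11 itself was not called after MI (-0.18 ± 0.14, SE, edgeR adjusted p = 0.297) or IR (0.22 ± 0.15, adjusted p = 0.199). It was higher in summed TPM (0.32 after MI and 0.61 after IR) and per sarcomere transcript (1.61 and 1.77). The medians were 0.6 and 0.48 for all tested transcripts in TPM, and 1.84 and 1.57 for all genes per sarcomere transcript. Fgf11 thus lay below both medians after MI and above both after IR. In TPM this sets a value summed over a gene beside a median of single transcripts, so that comparison is approximate. Fgf14 was lower after MI (-1.26 ± 0.32, edgeR adjusted p = 0.00255) and not called after IR (0.06 ± 0.32, adjusted p = 0.9). Per sarcomere transcript Fgf14 was 0.51 after MI, not called, and higher after IR (1.57, equal to that all-gene median). Fgf12 was too low to test.

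**Figure D4:**
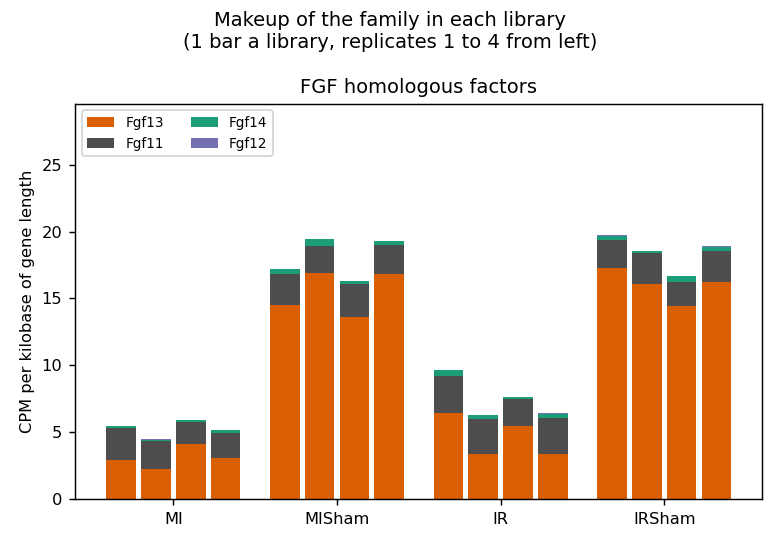
CPM per kilobase of gene length, stacked by gene, for the FGF homologous factors, with 1 bar for each library, grouped as MI, MISham, IR and IRSham. The Fgf13 segment is shorter in MI and IR than in the shams, while Fgf11 is of similar height in all groups on this scale. Per sarcomere transcript Fgf11 is higher after MI (1.61) and IR (1.77), near the all-gene medians of 1.84 and 1.57.

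The transcript table held 28 annotated transcripts of the members, of which 11 had a mean of at least 1 TPM and none belonged to Scn2b or Scn3b. Of the 11, 8 were lower and 0 higher after MI, where 10.1% of all tested transcripts were lower and 49% higher, and 7 were lower and 1 higher after IR, where 9.23% were lower and 42.5% higher (limma adjusted p under 0.05). None was called for the difference of responses, where 0.084% of transcripts were, or between the shams, where 0.0198% were. Scn4b has a single annotated transcript, Scn4b-201, which had 0.52 ± 0.182 TPM in MI and 9.95 ± 1.29 TPM in MISham, and 1.12 ± 1.14 TPM in IR and 10 ± 0.298 TPM in IRSham (SD, n = 4 each). Scn4a is split between the coding Scn4a-201 and the short noncoding Scn4a-202, of 6598 and 443 bases. Scn4a-201 had 0.77 ± 0.0357 TPM in MI and 4.64 ± 0.662 in MISham, and 1.2 ± 0.934 in IR and 3.85 ± 0.289 in IRSham. Scn4a-202 had 0.695 ± 0.378 TPM in MI and 5.73 ± 0.898 in MISham, and 1.05 ± 0.236 in IR and 2.56 ± 0.729 in IRSham. On log2(TPM + 1), which understates the change of low transcripts, both were lower at a limma adjusted p under 0.05, after MI (-1.66 ± 0.22 for Scn4a-201 and -2.01 ± 0.19 for Scn4a-202, SE) and after IR (-1.23 ± 0.22 and -0.78 ± 0.19).

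Fgf13 had 5 transcripts at this level; the gene is known for alternative first exons that give proteins with different amino ends. By mean TPM the most abundant were the short Fgf13-206 (456 bases) and Fgf13-205 (575 bases). The longer Fgf13-202 (2091 bases) and Fgf13-203 (2237 bases) followed, and each of these is annotated as protein coding, as are the short ones. Fgf13-205 had 3.36 ± 1.35 TPM in MI and 13.1 ± 3.65 in MISham, and 7.3 ± 3.45 in IR and 16.1 ± 3.21 in IRSham, and it passed in both (log2 fold changes -1.72 ± 0.30 and -1.13 ± 0.30, SE, limma adjusted p = 0.000197 and 0.00605). Fgf13-202 had 2.48 ± 1.23 TPM in MI and 8.41 ± 1.68 in MISham, and 3.68 ± 2.4 in IR and 9.46 ± 3.01 in IRSham, and it passed too (-1.50 ± 0.44 and -1.35 ± 0.44, SE, limma adjusted p = 0.00863 and 0.0185), although after IR not without IRSham library 1 (adjusted p = 0.0531). Fgf13-206 spread widely, with 7.59 to 32.1 TPM in MISham and 1.12 to 17.3 TPM in IR. It passed after IR (-2.04 ± 0.57, SE, limma adjusted p = 0.00779) and not after MI (-1.08 ± 0.57, adjusted p = 0.115), though it did after MI without MISham library 4 (adjusted p = 0.0418). Fgf13-203 passed after MI (-1.19 ± 0.37, SE, limma adjusted p = 0.0114) and not after IR (-0.88 ± 0.37, adjusted p = 0.0568), though it did after IR in 5 of 16 fits that left out 1 library, with adjusted p down to 0.0211. The noncoding Fgf13-207 passed after MI (-1.36 ± 0.56, SE, limma adjusted p = 0.0474) and not after IR (-0.23 ± 0.56, adjusted p = 0.749). The Fgf13-207 call after MI was lost in 9 of 16 such fits, with adjusted p up to 0.128.

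**Figure D5:**
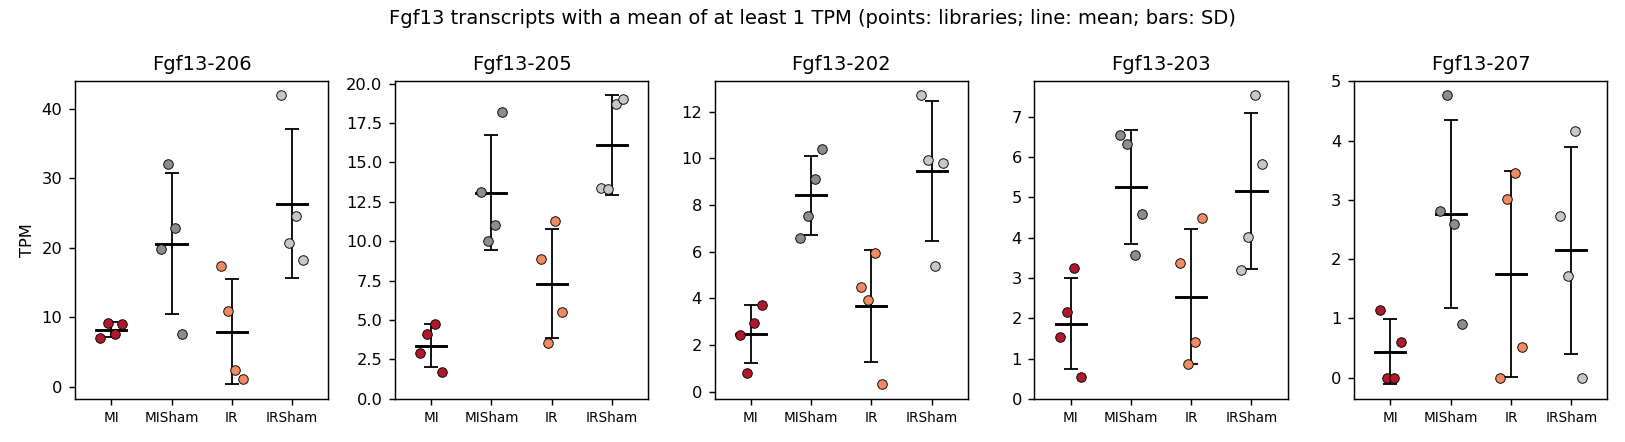
TPM of the 5 Fgf13 transcripts with a mean of at least 1 TPM in every library (points), with group mean (line) and SD (bars), n = 4 a group, each panel on its own linear axis. Fgf13-205 separates MI from MISham and IR from IRSham without overlap, while Fgf13-206 ranges from 7.59 to 32.1 TPM among MISham libraries alone.

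The makeup of transcripts within a gene was not shown to change. Among the 8 transcripts of Scn4a, Fgf13 and Gpd1l whose share of annotated TPM could be tested, 0 were called in either injury, where 5.91% of tested shares were called after MI and 3.88% after IR (limma adjusted p under 0.05 and at least 10 percentage points). None was called for the difference of responses, where 0 of all shares were, or between the shams, where 0.0742% were. The changes were as large as 13.7 ± 9.77 percentage points lower for Fgf13-206 after IR, and Scn4a-201 was 10.2 ± 7.34 points higher after MI but 12.7 ± 7.34 points lower after IR (SE). Gpd1l was mostly Gpd1l-204, which had 14.8 ± 0.664 TPM in MI and 20.6 ± 1.36 in MISham, and 16.6 ± 1.22 in IR and 21.2 ± 1.45 in IRSham. Scn7a-201, the single transcript of Scn7a, was higher in TPM after IR (0.67 ± 0.15, SE, limma adjusted p = 0.00173).

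Other genes that handle the channel or sodium were read from lists that overlap no member. Of 23 tested anchors, chaperones and regulators, 15 were lower and 7 higher after each injury, with list medians of -0.67 after MI and -0.58 after IR, where 30.2% of all genes were lower and 34.8% higher after MI, and 28.2% lower and 29.5% higher after IR. These counts turn with the scale: per sarcomere transcript 20 were higher and 1 lower after MI, and 19 higher and 1 lower after IR, close to the 82.7% and 79.6% of all genes that were higher. Ank2, the ankyrin that tethers membrane transporters, fell after MI (-1.84 ± 0.13, SE) and IR (-1.62 ± 0.13), and Ptpn3, a phosphatase that binds the channel tail, fell as well (-2.05 ± 0.15 and -1.53 ± 0.15); neither was called per sarcomere transcript (Ank2 -0.11 and -0.14, Ptpn3 -0.31 and -0.05). The list members that rose on both scales included calmodulin Calm2 (1.05 ± 0.08 and 0.80 ± 0.08), the 14-3-3 gene Ywhah (1.23 ± 0.10 and 0.97 ± 0.10), the syntrophin Sntb2 (0.88 ± 0.07 and 0.71 ± 0.07) and the galectin Lgals1 (1.71 ± 0.14 after each).

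Of 17 genes of the sodium pump and sodium transporters, 6 were higher and 6 lower after MI and 6 higher and 9 lower after IR, with medians of -0.13 and -0.39. The MI counts are near the shares of all genes (34.8% higher and 30.2% lower), and after IR 29.5% of all genes were higher and 28.2% lower. Per sarcomere transcript 14 were higher and 1 lower after MI, and 14 higher and 0 lower after IR, again near the 82.7% and 79.6% of all genes that were higher. With TMM scaling the cardiac pump inhibitor phospholemman, Fxyd1, fell (-1.41 ± 0.15 after MI and -1.50 ± 0.15 after IR, SE), but per sarcomere transcript it was not called (0.28 and -0.00). The pump beta subunit Atp1b3 (1.07 ± 0.07 and 0.66 ± 0.07), the FXYD family gene Fxyd5 (2.2 ± 0.28 and 1.71 ± 0.28) and the taurine transporter Slc6a6 (0.83 ± 0.10 and 0.86 ± 0.10) rose on both scales. Among 5 tested leak and other non-voltage-gated channel genes, 2 rose after MI, Unc79 (1.90 ± 0.76, SE) and Asic3 (1.00 ± 0.40), both under 1 CPM, and Unc79 also rose after IR (2.71 ± 0.79). Per sarcomere transcript 4 of the 5 were higher after MI and 5 after IR, where 82.7% and 79.6% of all genes were.

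The genes whose log2 CPM was most like each member over the 16 libraries were listed as a description; all libraries share the split between injured and sham tissue. For Scn4b these were Rpl3l, Dgat2 and Cacna1s (Pearson r = 0.991, 0.99 and 0.989), and for Scn4a Sh3glb2, Whrn and Cacna1s (0.989, 0.988 and 0.987). Fgf13 was nearest to Ctsf, Grb14 and Tmem38a (0.996, 0.995 and 0.995), and Gpd1l to Hibch, Fastk and Tpd52l1 (0.995, 0.995 and 0.994). Among the genes nearest to Scn7a were Ecm2 and Gas6 (0.905 and 0.894). Scn3b was nearest to Tbx20 (0.861) and Scn2b to Fat3 (0.814), at counts so low that these values carry little weight.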

How the data were processed

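The deposited gene table holds raw counts per gene and library, with no normalization, and the deposited transcript table holds TPM; per the submitters' processing notes, the tools were kallisto 0.50.1, featureCounts 2.0.1, HISAT2 2.2.1 and SAMtools 1.7 on GRCm39, with no roles stated. Whether counting used strand was not given in the sources used here; annotated genes that overlap a member had mean CPM under 1. Symbols came by ID from GENCODE M21, for 52080 of 63318 genes and 138329 of 163740 transcripts; it is built on GRCm38, so no coordinates of the tables were used. Another 4 long-read libraries were not analysed here.

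Counts were fitted in R 4.3.3 with edgeR 4.0.16 (TMM, filterByExpr with a minimum count of 10 and total of 15, robust quasi-likelihood, 1 mean per group over 16 libraries), with Benjamini-Hochberg adjustment over 19741 genes and a threshold of 0.05. Each injury was set against its sham, the injury responses against each other, and MISham against IRSham. CPM per kilobase used the gene length in the table. Transcripts were tested with limma 3.58.1 on log2(TPM + 1) at a mean TPM of at least 1, and shares of annotated TPM in percent for genes summing to 5 TPM or more that had 2 or more transcripts with a mean share of 5% or above. Code was tested on simulated data. Alternatives included DESeq2 1.42.0, other scalings, a replicate block and each library left out. The members, lists, tests and the rule for named genes (all members, up to 6 genes of a list by adjusted p after MI, every measured family gene, and the 3 most correlated genes) were chosen with earlier results of these data known. Some genes that this rule names are not reported here.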

Additional observations from a re-analysis of the deposited data

Results flagged for a closer look

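Scn2b in the IR group had 0.846, 0.864, 0.272 and 0.807 CPM in libraries 1 to 4, and library 3 stood apart: its gap to the nearest library was 0.904 of the range of the group, above Dixon's critical value for 4 libraries. The library held 9 counts of Scn2b and the others 24, 31 and 27. The gap was tested in 72 groups of values, of which chance alone flags about 1 in 20.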

How the results depend on the processing

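Of the 7 members, the calls of Scn4b, Scn4a, Fgf13 and Gpd1l after each injury were kept under every alternative per library, while per sarcomere transcript Gpd1l turned higher and Fgf13 after IR (-0.32) lost its call, which it kept with the median log ratio of the sarcomere genes (-0.43). Scaling by library size alone moved the all-gene median to 0.39 (log2) after MI and 0.32 after IR, and 9318 genes were higher and 4270 lower after MI, against 6861 and 5960 with TMM (after IR 8411 and 3754, against 5814 and 5567). Scn7a after IR was then higher (0.42), as it was in summed TPM (0.67). Scn7a after MI was 0.00 in summed TPM, 1.09 per sarcomere transcript and, for Scn7a-201, 0.00 with a pseudocount of 0.1. Gpd1l was 0.56 after MI and 0.47 after IR per sarcomere transcript, where all genes had medians of 1.84 and 1.57.

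The 38 genes called for the difference of responses became 117 without the low-count filter, 511 with DESeq2, 1096 without MISham libraries 1 and 3, 129 without IR libraries 1 and 3, 15 in summed TPM, 1 per sarcomere transcript and 3 to 282 with 1 library left out. Members called for it were 1 in the first 4 of these and 0 to 1 with 1 library left out. The 632 genes called between the shams became 963 with DESeq2, 1674 without MISham libraries 1 and 3 and 12 in summed TPM, and the shams alone called 1 member. The cause was not tested.

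Without IR libraries 1 and 3 the difference of responses was 0.00 for Scn4a, 0.72 for Scn4b and -0.23 for Scn2b; without MISham libraries 1 and 3 it was -0.33 for Scn3b; per sarcomere transcript it was 0.09 for Gpd1l. Between the shams Scn4b was -0.05 and Fgf13 0.07 without MISham libraries 1 and 3, and Scn4b was -0.02 in summed TPM. Gpd1l between the shams was 0.02 with DESeq2 size factors, with the DESeq2 test and without IR libraries 1 and 3, 0.01 without the filter, 0.03 with the shams alone or with summed sarcomere counts, and 0.09 without MISham libraries 1 and 3.

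With 1 library left out, signs turned for values near 0: Scn2b ranged from -0.11 to 0.27 after MI and from -0.19 to 0.34 after IR; in the difference of responses Scn2b from -0.21 to 0.32, Scn3b from -0.17 to 0.36 and Fgf13-202 from -0.68 to 0.13, and per sarcomere transcript Scn2b from -0.07 to 0.51 and Gpd1l from -0.02 to 0.20. Between the shams Scn4b ranged from -0.01 to 0.11, Fgf13 from -0.10 to 0.01 and Gpd1l from -0.05 to 0.04, and per sarcomere transcript Scn4b from -0.03 to 0.15 and Gpd1l from -0.04 to 0.02. In TPM, Scn7a-201 after MI ranged from -0.11 to 0.05, Gpd1l-202 after MI from -0.10 to 0.34 and Fgf13-207 after IR from -0.71 to 0.16. Between the shams in TPM, Scn7a-201 ranged from -0.03 to 0.14, Scn4b-201 from -0.08 to 0.05, Gpd1l-204 from -0.07 to 0.00, Gpd1l-202 from -0.42 to 0.02, Fgf13-202 from -0.34 to 0.03, Fgf13-203 from -0.12 to 0.22 and Fgf13-207 from -0.09 to 0.70.

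The labels do not say whether replicate numbers pair the libraries. The correlation of deviations between same-numbered libraries ran from -0.162 to 0.149. That check showed no sign of pairing but cannot show that there was none. With the replicate block 10 genes were called for the difference of responses, and the members called were 5 after MI and 4 after IR, as without it. Scn2b and Scn3b, with 4 to 40 and 11 to 130 counts per library, are limited by depth.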
